A study of Sus scrofa with 20 samples.

Results

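The ileal mucosa of suckling piglets was compared between 28 and 35 days of age, in the 4 arrays labelled S28D and the 3 labelled S35D, 7 of the 20 arrays of the series. Members were taken by deposited label alone. The piglets were crosses of the breeds Landrace, Large white and Duroc. These 7 stayed with the sow and took only milk, and each array held RNA of 1 piglet. The other arrays held suckling piglets of 14 days (S14D, 3) and 21 days (S21D, 4) and piglets weaned at 21 days and sampled at 28 days (21W28D, 3) or 35 days (21W35D, 3). They came from litters of a few sows, so that some shared a sow, but no litter is named for any array, and the piglets of different ages are different animals. Mucosa was scraped with a glass slide from the distal ileum, where it also contains Peyer's patch.

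The labels S35D and 21W28D may be exchanged, in which case the comparison would be one of 28-day suckling piglets with piglets weaned a week before. Under the deposited labels, interferon-induced genes were high in S35D and low in 21W28D, a direction opposite to that of the study's real-time PCR. By the methods' t-test, without adjustment and at 2-fold or more, 1530 probe sets differed between S28D and S35D under the deposited labels and 36 under exchanged ones (22 higher, 14 lower). The study's own count for suckling piglets of these ages is far below the count under the deposited labels. Every result here follows the deposited label, "S35D" means the arrays labelled S35D, and the values under exchanged labels are given where they bear on a result.

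The distal ileum absorbs bile acids and remaining nutrients through enterocytes, and it guards the gut with secreted proteins, secretory IgA and organised lymphoid follicles. In the pig, the ileal Peyer's patch is a site of B cell expansion in early life, and sow's milk supplies antibodies and fat until the piglet eats solid feed. Type I and III interferons induce a common set of antiviral genes in epithelium and leukocytes, of which ISG15, a ubiquitin-like protein that is attached to other proteins, is a standard example.

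Values are log2 intensities after gcRMA, between a floor of 2.08 and a highest value of 16.41, so a difference of 1 is 2-fold. The 7 arrays had medians between 5.16 and 5.26, and each correlated with the mean of the rest of its own group at r of 0.989 to 0.994 over probe sets. The site was checked on markers. FABP6, the ileal bile acid-binding protein, stood at 15.65, 15.64, 15.80 and 15.87 in the S28D arrays and at 16.07, 15.99 and 15.87 in the S35D arrays. Of the 9 measured pancreas genes, only 1 reached a value of 4, and that 1 was AMY2, an amylase (14.73 in S28D, 14.86 in S35D). No signal for CHGA, an enteroendocrine granule protein, was seen above the floor in any of the 7 arrays (2.08 throughout). S35D replicate 3 stood apart in DES, the muscle intermediate filament (8.11 against 4.61 to 4.80 in the other 6), and in its smooth muscle score, the mean over the genes of the list that reached a value of 4 in any array, each relative to its mean over all 20 arrays (2.24 against -0.58 to 0.19). ACTG2, smooth muscle actin, was 12.41 in this array, within the range of the other 6 (11.23 to 13.44). In bulk tissue, fewer cells of a type and less RNA per cell cannot be told apart.

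From S28D to S35D, 471 probe sets were higher (1.96% of the 23999 tested) and 169 were lower (0.704%), at an adjusted p under 0.05 in limma and a difference of at least 2-fold. The median difference was 1.48 among the higher and -1.28 among the lower. These calls covered 239 genes with a higher probe set and 54 with a lower one, while 205 higher and 108 lower probe sets had no single gene name. Among 6765 genes taken by their brightest probe set, 418 (6.18%) were higher and 194 (2.87%) lower at an adjusted p under 0.05 without a fold minimum, and the median difference over all these genes was 0.00. Counts of list members below use this last rule and are to be read against 6.18% and 2.87%.

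The count rested strongly on single arrays and on the spread borrowed from the other groups. S35D replicate 1 lay furthest from S28D, being the highest of the 3 S35D arrays in 385 of the 471 higher probe sets and the lowest in 134 of the 169 lower ones. Without it, 54 probe sets were called, without S35D replicate 3, 173, and without S28D replicates 2, 3 and 4, 144, 287 and 312 respectively. Leaving out S28D replicate 1, the S28D array closest to S35D, gave 960 calls, and leaving out S35D replicate 2 gave 837. A fit on the 7 arrays alone called 15. By the gene rule without a fold minimum, 32 genes were higher and 14 lower without S35D replicate 1. Fewer genes than the 418 of the reported fit were also higher without S35D replicate 3 or S28D replicate 2, 3 or 4. More were higher without S28D replicate 1 or S35D replicate 2. Counts of list members with an array left out are to be read against these shifts over all genes. With S35D and 21W28D exchanged, 0 were called by limma, at a lowest adjusted p of 0.104 and with 451 probe sets at an unadjusted p under 0.05.

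**Figure D1:**
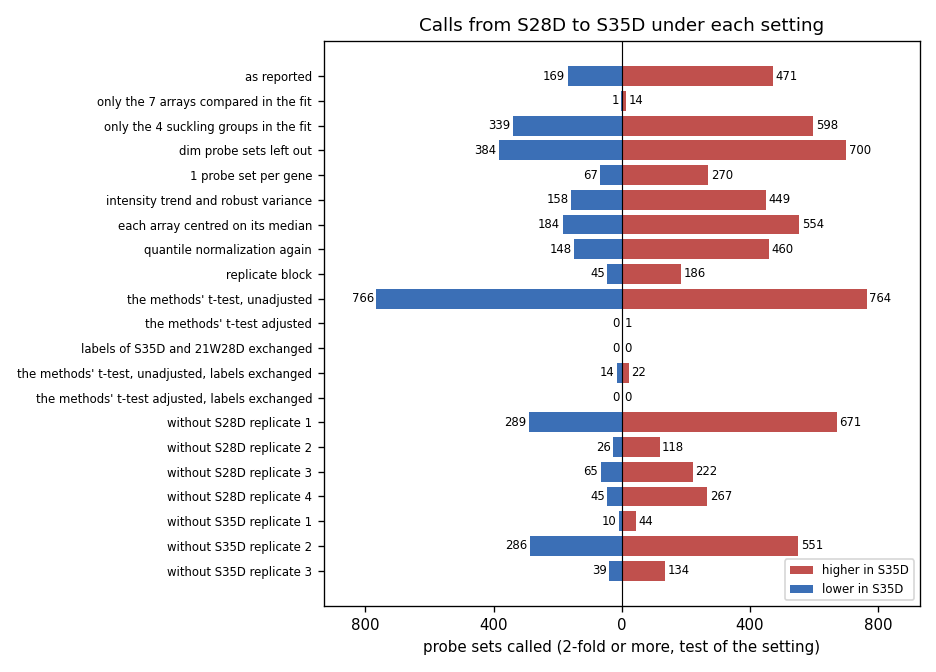
Number of probe sets called from S28D to S35D under each setting, with those higher in S35D to the right of 0 and those lower to the left (2-fold or more, with the test that the setting names). The reported fit has 471 and 169, the fit without S35D replicate 1 has 44 and 10, and the limma fit with exchanged labels has none.

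Whether these differences were particular to suckling was asked with the difference of changes, S35D minus S28D less 21W35D minus 21W28D. No probe set was called (0% of 23999 in limma, lowest adjusted p 0.0619, with 610 at an unadjusted p under 0.05). S35D and 21W28D enter this contrast with the same sign, so that an exchange of their labels leaves it as it is. Side by side, the 471 higher probe sets had a median difference from S28D of 1.48 in S35D, 0.12 in 21W28D and 0.96 in 21W35D, and the 169 lower ones had -1.28, -0.13 and -0.78. These 3 comparisons share the S28D arrays. Unlike the contrast, these medians do depend on the labels. With S35D and 21W28D exchanged, 0.12 and -0.13 would be the medians of the older suckling piglets. The medians 1.48 and -1.28 would then belong to weaned piglets, as 0.96 and -0.78 do under either labelling. Which labels are right was not tested. The S35D mean was the highest of the 6 groups in 362 of the 471 and the lowest in 111 of the 169. These probe sets were chosen for their S35D difference from S28D. Larger values in S35D than in 21W35D are thus in part built in and do not show a change particular to suckling.

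A few secreted proteins that defend the mucosal surface rose. SLPI, which inhibits neutrophil proteases in secretions, stood at 10.43, 8.28, 8.59 and 10.98 in the S28D arrays and at 14.19, 13.31 and 14.09 in the S35D arrays. All S35D arrays lay above all S28D arrays, although the latter were widely spread (9.57 ± 1.34 SD, n = 4, against 13.86 ± 0.48 SD, n = 3). The difference was 4.29 (SE 0.99, adjusted p = 0.0259 in limma), or 19.5-fold. SFTPD, a collectin that binds microbial sugars, gave 8.03, 5.29, 7.36 and 6.41 in S28D and 11.41, 10.63 and 10.86 in S35D. The groups were again apart, by 4.19 (SE 0.81, adjusted p = 0.0142), and the other SFTPD probe set moved by 4.02.

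DMBT1, a scavenger receptor cysteine-rich protein of mucus that binds bacteria, gave 7.89, 7.66, 10.88 and 10.20 in S28D and 13.51, 12.38 and 13.28 in S35D. The S28D piglets fell into a low and a middle pair, and all S35D piglets lay above them (difference 3.90, SE 0.82, adjusted p = 0.0182). TFF2, a trefoil peptide secreted with mucus, was tight in both groups, at 8.27, 7.74, 8.38 and 8.70 against 11.83, 11.53 and 11.02. It rose by 3.19 (SE 0.57, adjusted p = 0.0115) and also passed in the fit on the 7 arrays alone (adjusted p = 0.0437). SLPI, SFTPD and DMBT1 were the only 3 of the 22 measured secreted defence genes that passed, none of the 22 passed in the other direction, and the list's median was 0.00. Over the list, 8 of the 22 members lay above 0 and 7 below. Only 12 of the 22 reached a value of 4 in any array. With members left out that did not reach 4 in at least 3 arrays, the median was 0.83. TFF2 was the only 1 of 8 measured goblet cell genes to pass.

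Of the genes that serve secretory IgA, CCL28 and PIGR rose. CCL28, a mucosal chemokine that draws IgA plasma cells, gave 7.02, 3.06, 5.47 and 3.96 in S28D and 8.87, 7.56 and 8.42 in S35D. The lowest S35D array was only 0.54 above the highest S28D array, and the difference of 3.41 (SE 0.95) passed narrowly (adjusted p = 0.0477). PIGR, through which epithelial cells take up and secrete polymeric IgA, gave 9.51, 8.99, 9.53 and 9.98 in S28D and 11.60, 10.76 and 11.65 in S35D. The groups did not overlap, and PIGR rose by 1.83 (SE 0.45, adjusted p = 0.0311). These were 2 of the 8 measured genes of this list, whose median difference was 0.24. Without S35D replicate 1, no member of the secreted defence, goblet cell or IgA lists passed.

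**Figure D2:**
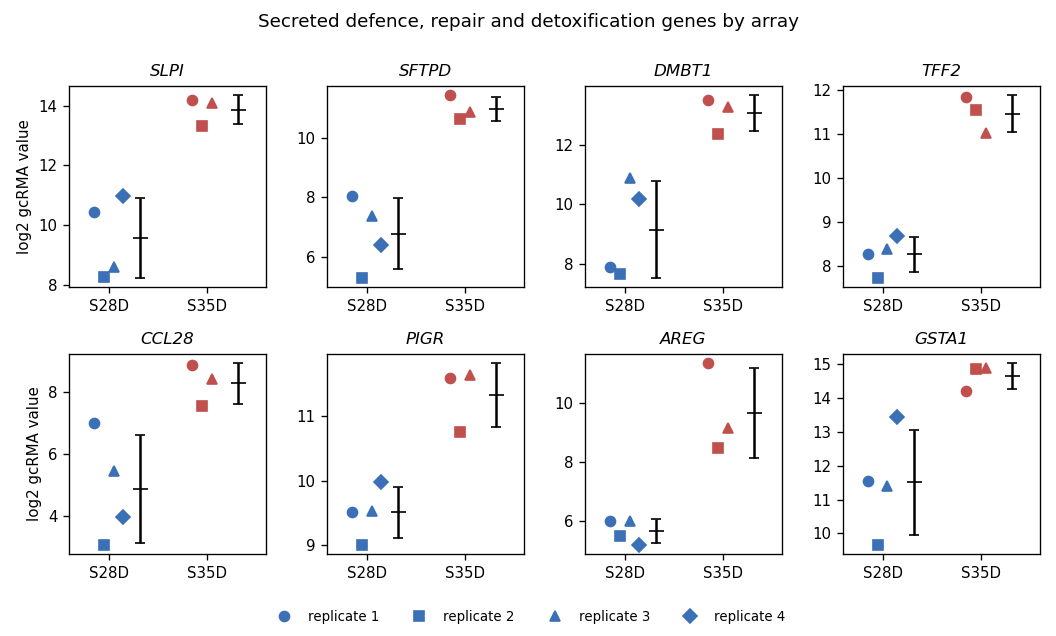
Log2 gcRMA values by array for 8 secreted defence, repair and detoxification genes in S28D (blue, n = 4) and S35D (red, n = 3), with the symbol giving the replicate and the black mark the group mean and SD. In all 8 genes the S35D arrays lie above the S28D arrays, and the S28D arrays are widely spread in SLPI, DMBT1, CCL28 and GSTA1. All but PIGR were picked among genes without overlap, and 21.9% of all probe sets had none.

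Some genes of the EGF family and the immediate early response also changed. AREG, amphiregulin, a ligand of the EGF receptor released in epithelial repair, gave between 5.18 and 6.0 in S28D and 11.38, 8.47 and 9.15 in S35D. The S28D arrays were close together and all S35D arrays were at least 2.47 above them. AREG rose by 4.00 (SE 0.67, adjusted p = 0.00927), and with each of the 7 arrays left out in turn the difference stayed between 3.15 and 4.60 with an adjusted p of at most 0.0402. FOS, a transcription factor induced within minutes by growth factors, gave 9.21, 10.19, 9.39 and 9.01 in S28D and 11.48, 11.41 and 11.08 in S35D (difference 1.87, adjusted p = 0.0102). DUSP6, a phosphatase that ERK signalling induces and that switches ERK off, rose by 1.44 (adjusted p = 0.00704, at most 0.0384 with an array left out).

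ZFP36, which destabilises cytokine messages, rose by 0.56 (adjusted p = 0.0459). IER3, also an early response gene, went the other way, from 6.94, 6.90, 7.69 and 6.98 to 5.26, 5.83 and 6.33 (difference -1.32, adjusted p = 0.0288). In all, 4 of the 17 measured genes of this list rose and 1 fell, at a median difference of 0.30. Without S35D replicate 1, 2 rose and 0 fell.

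Interferon-induced genes were higher in S35D. RSAD2, viperin, an antiviral enzyme, ranged from 10.93 to 13.55 in S28D and gave 15.15, 14.24 and 14.49 in S35D. S28D replicate 3 came within 0.69 of the lowest S35D array. RSAD2 rose by 2.68 (SE 0.51, adjusted p = 0.0136). ISG15 gave 12.09, 10.82, 13.53 and 11.95 in S28D and 14.89, 13.82 and 14.23 in S35D. The groups were apart by only 0.29 at their nearest, and the difference was 2.21 (SE 0.57, adjusted p = 0.0363), or 4.64-fold. USP18, which removes ISG15 from its targets, gave 11.06, 10.66, 12.31 and 10.87 in S28D and 12.95, 12.17 and 12.92 in S35D, so that S28D replicate 3 lay above S35D replicate 2. USP18 rose by 1.46 (adjusted p = 0.0329).

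Other antiviral effectors moved by similar amounts. OAS1, which makes the messenger that activates RNase L, rose by 2.46 (adjusted p = 0.0126). IFIT1, IFIT2 and IFIT3, proteins that bind viral RNA or inhibit its translation, rose by 1.96, 2.40 and 2.05 (adjusted p = 0.0249, 0.0311 and 0.0245). XAF1, an interferon-induced promoter of apoptosis, rose by 2.52 (adjusted p = 0.0284). Of the 21 measured antiviral effectors, 12 rose and 0 fell, at a median difference of 1.47. Of all genes, 6.18% rose. The list score, over the 20 members that reached a value of 4, ran from -0.79 to 0.97 in the S28D arrays, the highest being replicate 3, and from 1.13 to 1.83 in S35D.

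Upstream of the effectors, DDX58, which encodes the viral RNA sensor RIG-I, gave 9.22, 8.37, 10.32 and 8.84 in S28D and 12.29, 11.11 and 11.68 in S35D. It rose by 2.51 (adjusted p = 0.0225), and ZBP1, a sensor of Z-form nucleic acid, rose by 2.32 (adjusted p = 0.0289). IRF7, the transcription factor that amplifies type I interferon, ranged from 8.42 to 10.63 in S28D and from 11.61 to 12.22 in S35D, and rose by 2.15 (adjusted p = 0.0145). DDX58 and ZBP1 were 2 of 6 measured sensors, of which 0 fell, at a list median of 0.33. Only 3 of the 6 reached a value of 4 in any array. With dim probe sets left out (those not at 4 in at least 3 arrays), the median was 2.32. IFNGR1, a chain of the interferon gamma receptor, moved from 11.60, 11.39, 11.47 and 11.41 to 12.64, 12.59 and 12.84. All 3 S35D arrays were above all S28D arrays, with little spread in either group, and the rise of 1.22 (SE 0.18, adjusted p = 0.00623) passed with any of the 7 arrays left out, at an adjusted p of at most 0.0245. TYK2, a kinase of interferon receptors, fell by 0.52 (adjusted p = 0.0208), from between 10.46 and 10.53 to between 9.94 and 10.02. The highest of the 4 TYK2 probe sets stood at 0.00. In all, 2 of 15 interferon signalling genes rose and 1 fell, at a median of 0.06.

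The interferon calls varied with the arrays used. Of the 21 antiviral effectors, 0 passed without S35D replicate 1, 4 without S35D replicate 3, without S28D replicate 2 or without S28D replicate 4, and 13 without S28D replicate 3. In each of these fits, the share of all genes that were higher was below the 6.18% of the reported fit. The 4 of 21 lay above that share and the 0 of 21 did not. Fewer calls were thus not particular to this list. Genes for the interferons themselves were dim on average, with IFNB1 at 2.08, IFNA1 at 3.19 and 3.13, and IFNG at 3.15 and 2.65 in the S28D and S35D means. Of these 3, 1 reached a value of 4 in any array. The list score, which rests on it, was 2.13 in S28D replicate 3 and -0.68 to -0.45 in the other S28D arrays. With the labels exchanged, the change from 28 to 35 days would be -2.02 for ISG15, -2.13 for RSAD2, -1.60 for DDX58 and -0.55 for the median of the antiviral effectors, none of it past the threshold.

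**Figure D3:**
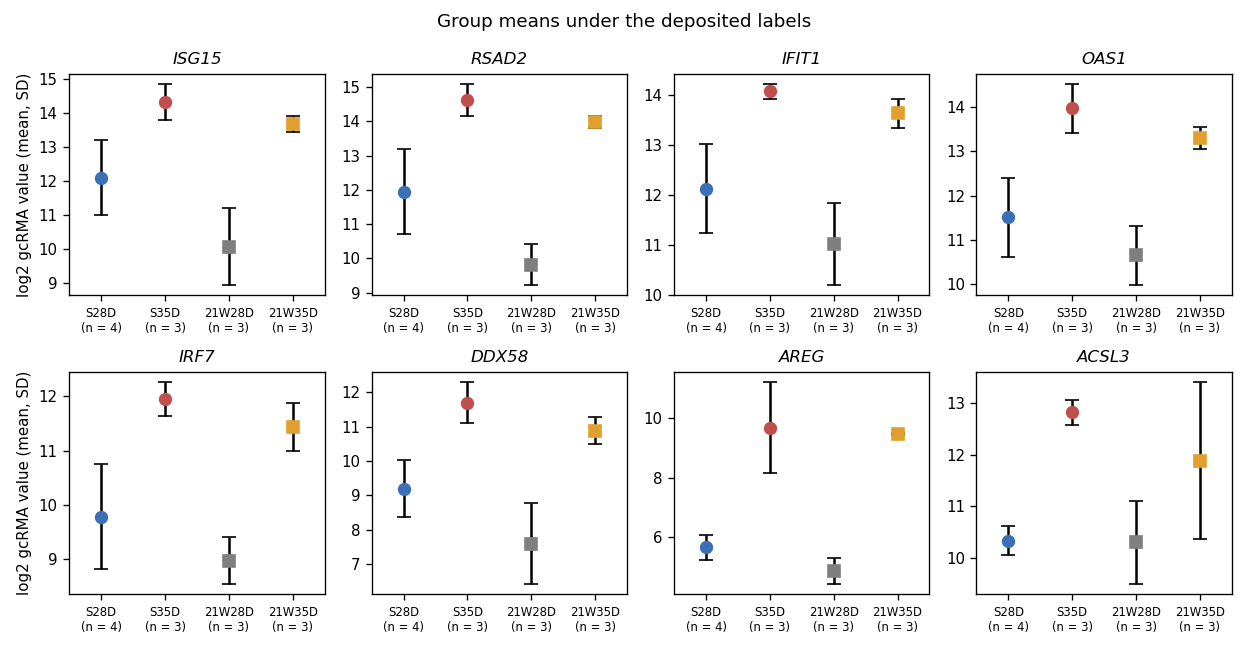
Group means with SD of 6 interferon-related genes, AREG and ACSL3 under the deposited labels, in log2 gcRMA values, for S28D (n = 4), S35D, 21W28D and 21W35D (n = 3 each). In all 8 genes the S35D and 21W35D means lie above the S28D and 21W28D means, and ISG15 and RSAD2 are lowest in 21W28D (10.08 and 9.81).

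Some genes of the enterocyte rose by smaller amounts. CLDN4, a tight junction claudin, gave 7.26, 7.75, 7.72 and 8.37 in S28D and 10.08, 9.15 and 9.46 in S35D, and rose by 1.79 (adjusted p = 0.0182). ST14, the membrane protease matriptase, rose by 1.39 (adjusted p = 0.028), and KRT18, a keratin of simple epithelium, by 1.36 (adjusted p = 0.0387). CDH17, the intestinal cadherin, moved from 12.47, 12.11, 12.15 and 12.47 to 13.45, 13.27 and 13.48 (difference 1.1, adjusted p = 0.0271), and CDH1, E-cadherin, by 0.79 (adjusted p = 0.0373). The other CDH1 probe set stood at 0.02.

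Of the 16 measured epithelial genes, 5 rose and 0 fell, all 16 lay above 0, and the median difference was 0.91. VIL1, the microvillus protein villin, and EPCAM, an epithelial surface protein, did not pass, at 0.71 (adjusted p = 0.157) and 0.41 (adjusted p = 0.0853). The epithelial score ran from -0.80 to -0.08 in S28D and from 0.34 to 0.74 in S35D. The number that rose was 0 without S35D replicate 1, S35D replicate 3 or S28D replicate 2, 1 without S28D replicate 3 and 11 without S28D replicate 1. The median stayed between 0.76 and 1.11 whichever array was left out and was 0.20 with the labels exchanged. Among 9 junction genes, JUP, plakoglobin of desmosomes and adherens junctions, and TJP1, a scaffold of tight junctions, passed, at dim levels: JUP averaged 2.54 and 3.95, and TJP1 2.53 and 2.9.

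Several genes of fat absorption and export rose. ACSL3, which activates fatty acids and acts at lipid droplets, gave 10.34, 10.05, 10.23 and 10.72 in S28D and 12.93, 12.55 and 13.00 in S35D. The groups lay 1.84 apart at their nearest, and ACSL3 rose by 2.50 (SE 0.60, adjusted p = 0.0298). MTTP, the transfer protein that loads fat onto chylomicrons, gave 10.50, 10.38, 10.16 and 11.21 against 12.32, 12.20 and 12.24, and rose by 1.69 (adjusted p = 0.0356). PLIN3, a lipid droplet coat protein, rose by 1.68 (adjusted p = 0.0239), and SAR1B, the GTPase of the vesicles that carry chylomicrons out of the endoplasmic reticulum, by 0.87 (adjusted p = 0.015). The lowest of the 3 SAR1B probe sets stood at 0.19.

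Of the 26 measured genes of fat absorption, 4 rose and 0 fell, with 18 above 0, a median of 0.91 and a range from -2.22 to 4.33. Without S35D replicate 1 none passed, and 1 passed without S35D replicate 3, S28D replicate 2 or S28D replicate 3. PPARG, a fatty acid-responsive nuclear receptor, was at 2.1 in all 4 S28D arrays and at 4.76, 2.48 and 4.28 in S35D (difference 1.74, adjusted p = 0.0209), so the difference starts from the floor. It was 1 of 20 genes of fatty acid oxidation and ketogenesis to pass. In cholesterol synthesis, SC5D, which makes a late sterol intermediate, was the only 1 of 14 to rise (1.11, adjusted p = 0.0488, lost whichever of the 7 arrays was left out), while the list's median was 1.00 with 11 of 14 above 0. ABCC2, an apical exporter of conjugated bile acids and drugs, was within 1 log2 unit of the floor in all S28D arrays (2.26, 2.80, 2.35 and 2.93) and reached 6.33, 5.69 and 5.68 in S35D (difference 3.32, adjusted p = 0.0252, or 0.0417 in the fit on 7 arrays). Its size is that of a value against the floor.

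Single genes of transport and detoxification rose. AQP3, a basolateral water and glycerol channel, gave 9.69, 9.77, 9.50 and 10.72 in S28D and 12.37, 11.65 and 11.57 in S35D (difference 1.94, adjusted p = 0.0397). AQP11, an intracellular aquaporin, rose by 1.83 (adjusted p = 0.0252), and SLC9A3R1, the scaffold that holds apical transporters in place, by 1.2 (adjusted p = 0.0306). These were 3 of the 19 measured genes of ion and water transport, of which 0 fell, 17 lay above 0 and the median was 1.00. SLC39A4, the zinc importer of enterocytes, rose by 1.78 (adjusted p = 0.0471) as the only 1 of 12 metal handling genes. Over the 120 measured solute carrier genes, the median was 0.00, or 0.42 with dim probe sets left out. Of them, 9 rose and 0 fell, a share of the same order as that of all genes. They included SLC3A1, a subunit of the cystine transporter (1.75, adjusted p = 0.0311, with its other probe set at -0.28), SLC35C1, which carries GDP-fucose into the Golgi (1.52, adjusted p = 0.0209), SLC35A3, which carries UDP-N-acetylglucosamine (1.38, adjusted p = 0.0378), and SLC44A4, a choline transporter family member (1.17, adjusted p = 0.0321).

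GSTA1, a glutathione transferase abundant in enterocytes, gave 11.55, 9.65, 11.39 and 13.42 in S28D and 14.20, 14.86 and 14.88 in S35D. The S28D arrays were widely spread, and the rise was 3.14 (SE 0.74, adjusted p = 0.027). The other GSTA1 probe sets stood at 3.98 and 0.00. GSTO1 rose by 1.83 (adjusted p = 0.00967) and MGST3, a microsomal enzyme of the same kind, by 0.92 (adjusted p = 0.0355). UGT2B31, a UDP-glucuronosyltransferase, moved the opposite way, from 10.65, 10.83, 9.43 and 8.59 to 8.02, 8.42 and 6.54 (difference -2.22, adjusted p = 0.0414). So 3 of 13 phase II genes rose and 1 fell. Of 31 phase I genes, 0 rose and 1 fell, CYP2D25, a cytochrome P450 (-0.66, adjusted p = 0.043), whose other probe set moved by 1.90 the other way. GSR, PRDX4 and PRDX1, which reduce glutathione and peroxides, rose by 0.74, 0.67 and 0.42 (adjusted p = 0.026, 0.0321 and 0.0155), 3 of 23 redox genes, the other PRDX4 probe set standing at -0.93. The lowest of the 3 GSR probe sets stood at 0.00. None of the water and ion transport, metal handling, solute carrier, phase I, phase II or redox genes passed without S35D replicate 1.

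CTH, cystathionine gamma-lyase, which makes cysteine and hydrogen sulfide, gave 10.20, 9.56, 9.53 and 9.96 in S28D and 12.23, 11.67 and 11.90 in S35D. It was tight in both groups and rose by 2.12 (SE 0.31, adjusted p = 0.00623), passing with any array left out (adjusted p at most 0.0302). ARG2, the mitochondrial arginase, rose by 3.22 (adjusted p = 0.0121), from 3.49, 3.33, 4.07 and 4.35 to 7.70, 5.14 and 8.25. The lowest of the 3 ARG2 probe sets stood at -0.19. GMPR, which turns guanine nucleotides back into inosine nucleotides, gave 6.30, 3.98, 6.10 and 5.92 against 10.14, 8.10 and 8.95 and rose by 3.49 (adjusted p = 0.00664, at most 0.0384 with any array left out). TCP11 (3.21, adjusted p = 0.00722), LOC780435 (3.17, adjusted p = 0.0181), RAB27B, a GTPase of secretory vesicles (2.83, adjusted p = 0.0166), and HYAL1, a lysosomal hyaluronidase (2.66, adjusted p = 0.0338), completed the 15 largest rises.

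Few lysosomal and uptake genes passed. LGMN, the asparaginyl protease legumain, moved from 11.61, 10.93, 10.84 and 11.79 to 13.03, 13.01 and 13.12 (difference 1.76, adjusted p = 0.012), and GLB1, a beta-galactosidase, by 1.14 (adjusted p = 0.0397), 2 of 25 lysosomal genes. FCGRT, the neonatal Fc receptor that carries IgG, gave 12.80, 12.08, 11.95 and 12.42 in S28D and 13.25, 12.94 and 13.05 in S35D and rose by 0.77 (adjusted p = 0.0458), 1 of 10 genes of suckling-type endocytosis. None of the 8 measured genes of the brush border hydrolase list passed, at a median of 0.24 and a range from -0.14 to 0.73. DPEP1, a brush border dipeptidase outside this list, fell by 1.74 (adjusted p = 0.0403 in limma). No lysosomal or endocytosis gene passed without S35D replicate 1.

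Some genes of cell death and stress rose. CDKN1A, the p21 inhibitor of the cell cycle, gave 8.99, 9.10, 9.16 and 9.11 in S28D and 10.08, 10.05 and 10.38 in S35D. Its S28D arrays lay close together, and the rise of 1.08 (SE 0.19, adjusted p = 0.0101) passed with any array left out and in the fit on 7 arrays (adjusted p = 0.0434). CFLAR, which holds back caspase-8, rose by 1.11 (adjusted p = 0.00752, at most 0.0444 with an array left out), although its other probe set stood at -0.38. CASP8 and CASP1, the caspases of death receptors and of inflammasomes, rose by 1.13 and 1.66 (adjusted p = 0.0409 and 0.0379). TNFRSF1A, a TNF receptor, rose by 1.06 (adjusted p = 0.0388), and CYCS, cytochrome c, by 0.66 (adjusted p = 0.0417).

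These were 6 of 18 measured genes of apoptosis, with 0 lower and a median of 0.23. Only 2 passed without S35D replicate 1 or 3 or S28D replicate 2 or 4. DNAJB9, an endoplasmic reticulum co-chaperone, rose by 1.36 (adjusted p = 0.0186), the only 1 of 17 stress response genes. Of 37 proteasome subunits, 6 rose and 0 fell, 35 lay above 0 and the median was 0.27, with PSMA5 first (1.08, adjusted p = 0.00664) and PSMD14, PSMB5, PSMA2, PSMD11 and PSMB4 between 0.71 and 0.40. Of 63 genes of oxidative phosphorylation, 7 rose and 0 fell, 53 lay above 0 and the median was 0.24, and those named (NDUFA5, NDUFA9, NDUFAB1, NDUFC2, NDUFV2 and NDUFB3, all of complex I) moved by 0.64 to 0.32. Of 62 ribosomal protein genes, 0 rose and 2 fell, RPL5 by 0.44 and RPS28 by 0.28 (adjusted p = 0.0272 and 0.048), and 61 lay below 0 at a median of -0.24. In the fit without S35D replicate 1, 1 proteasome gene passed and no gene of oxidative phosphorylation or ribosomal protein gene did.

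**Figure D4:**
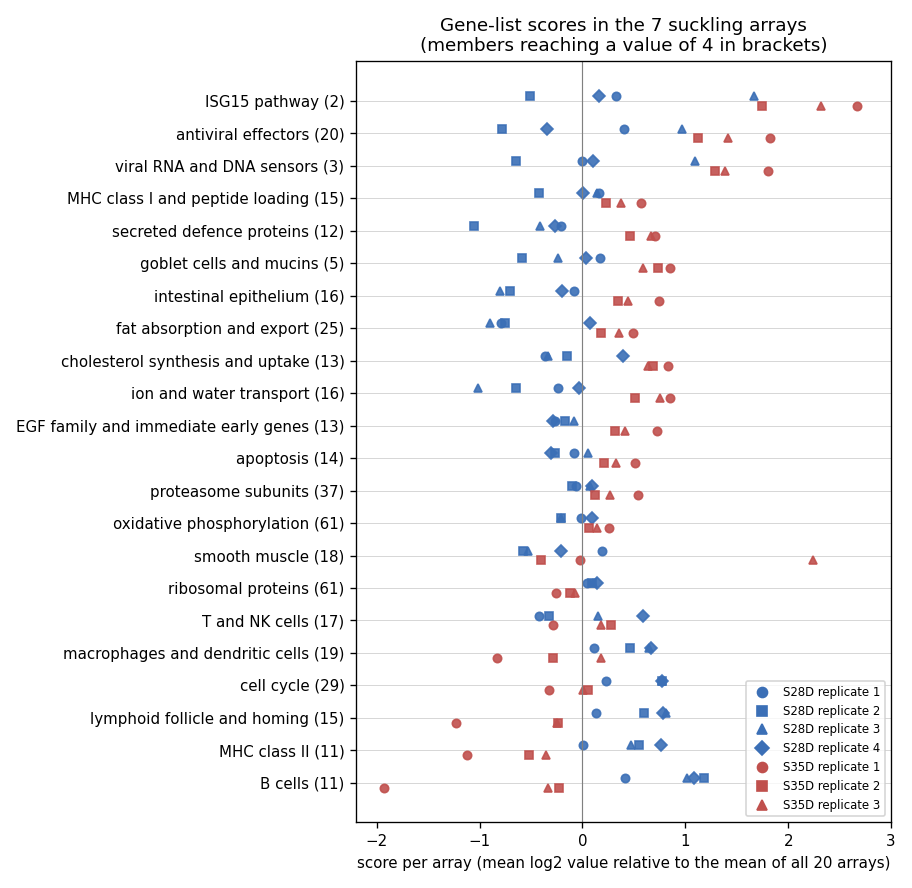
Scores of 22 gene lists in each of the 7 arrays (mean, over the members reaching a value of 4 in any array, of the log2 value relative to its mean over all 20 arrays), S28D in blue and S35D in red with 1 symbol per replicate. S35D replicate 1 lies furthest from S28D in the B cell (-1.93), lymphoid follicle (-1.23) and antiviral (1.83) lists, and S35D replicate 3 stands alone in smooth muscle (2.24).

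The falls were fewer. Among lymphoid genes, 1 of 12 B cell, 0 of 20 follicle and homing and 1 of 22 T and NK cell genes fell, where 2.87% of all genes did. SLA-DQB1, a chain of the pig MHC class II molecule, gave 12.12, 12.27, 12.58 and 12.68 in S28D and 10.54, 10.86 and 11.51 in S35D. It fell by 1.44 (SE 0.40, adjusted p = 0.0437), the only 1 of 11 class II genes to pass. Nevertheless, 10 of these 11 lay below 0, at a median of -1.22. FAM129C, a gene expressed in B cells, gave 4.99, 6.63, 5.88 and 7.02 in S28D and 3.51, 3.45 and 4.03 in S35D. It fell by 2.46 (adjusted p = 0.0272), with all 3 of its probe sets below 0, and was the only 1 of 12 B cell genes to pass, at a list median of -1.88. With 1 array left out, SLA-DQB1 and FAM129C passed only without S28D replicate 1.

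CD79B, a chain of the B cell receptor, gave 11.22, 12.07, 12.19 and 12.29 in S28D and 6.88, 11.10 and 10.66 in S35D. The groups did not overlap, yet S35D replicate 1 lay far below the other S35D arrays, and the difference of -2.40 (SE 1.91) did not pass (adjusted p = 0.524). CXCL13, the chemokine that gathers B cells into follicles, gave 13.38, 14.35, 14.30 and 13.63 against 10.08, 12.53 and 12.38, again without overlap and without passing (-2.25, adjusted p = 0.548). Both tests rest on the spread of all 6 groups. The SD of the B cell score was 0.35 in S28D and 0.95 in S35D but 1.38 in S14D and 2.03 in 21W35D. ICAM1 and VCAM1, adhesion molecules for leukocytes, and VAV1, a signalling protein of leukocytes, differed by -1.69, -1.51 and -1.34 (adjusted p = 0.0681, 0.114 and 0.243). SLA-DOA, a class II accessory chain, differed by -1.42 (adjusted p = 0.279). In the study's real-time PCR these chemotaxis genes went down both in suckling piglets past the age of S28D and after weaning. Their direction alone thus does not tell the deposited from the exchanged labels. The study had picked them partly because they changed on its arrays between S28D and weaned piglets of the same age. With labels exchanged, CXCL13 would differ by -0.61, ICAM1 by -0.55, VCAM1 by -0.35, VAV1 by -0.11 and SLA-DOA by 0.16. Under the deposited labels, these same values are the differences of those weaned piglets from S28D, each short of 2-fold. By PCR, CXCL13 and VCAM1 fell further in those weaned piglets than in the older suckling piglets. Under the deposited labels the larger falls were in S35D, and which labels are right was not tested.

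None of the 20 genes of the lymphoid follicle and homing list passed, at a median of -0.74 and a range from -3.0 to 0.95. With dim probe sets left out, this median was -1.51. The B cell score was 0.41 to 1.18 in the S28D arrays and -0.34, -0.23 and -1.93 in the S35D arrays, the last in replicate 1. Without S35D replicate 1 the B cell median was -1.13. With the labels exchanged it would be -0.27, and that of class II -0.11. How much of the follicle each scraping held was not measured, and its part in these values was not tested.

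Other lymphocyte genes split. CD69, a surface marker of recent lymphocyte activation, gave 4.00, 5.32, 5.20 and 4.38 in S28D and 3.37, 2.92 and 3.23 in S35D and fell by 1.55 (adjusted p = 0.0497). GZMH, a granzyme of cytotoxic lymphocytes, gave 7.12, 5.07, 6.76 and 6.96 against 9.03, 9.13 and 8.57 and rose by 2.43 (adjusted p = 0.029). So 1 of 22 T and NK cell genes rose and 1 fell, at a median of 0.05. With 1 array left out, CD69 passed only without S28D replicate 1, and GZMH only without S28D replicate 1 or 4. The T cell receptor chains CD3E and CD3G differed by 0.31 and 0.37 (adjusted p = 0.86 and 0.224), with overlapping groups. All 15 MHC class I and peptide loading genes lay above 0, at a median of 0.37, but none passed.

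**Figure D5:**
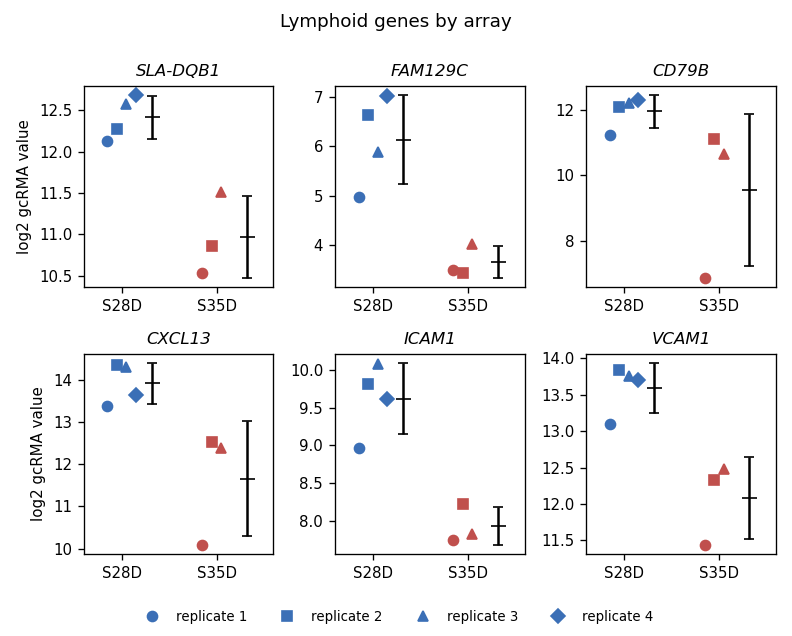
Log2 gcRMA values by array for 6 lymphoid genes in S28D (blue, n = 4) and S35D (red, n = 3), with the symbol giving the replicate and the black mark the group mean and SD. No gene overlaps between the groups, and S35D replicate 1 lies far below the other S35D arrays in CD79B (6.88) and CXCL13 (10.08). SLA-DQB1 and FAM129C were picked among genes without overlap, and 21.9% of all probe sets had none.

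The cell cycle list lay below 0 without a single call. Of 32 measured genes, 30 lay below 0 and 2 above, at a median of -0.70 and a range from -1.18 to 0.13, while 0 passed in limma and 0 had an unadjusted p under 0.05. Its score was 0.22 to 0.78 in S28D and -0.32 to 0.05 in S35D, without overlap. The SD of this score was 0.27 in S28D and 0.20 in S35D but 1.49 in S14D and 0.90 in 21W35D. The limma p-values rest on the spread of all 6 groups, not on that of the 7 arrays alone. In the fit on the 7 arrays alone, 0 of the 32 passed the adjusted p as well. Only 8 of all 6765 genes were lower in that fit, too few for this count to tell whether the list changed. None of the 9 stem cell and crypt genes, 25 macrophage and dendritic cell genes, 15 enteroendocrine genes or 22 smooth muscle genes passed. Of the macrophage and dendritic cell genes, 13 lay below 0 and 7 above, with a range from -4.14 to 1.30. Their median was -0.01, or -0.73 with dim probe sets left out. Their score was 0.11 to 0.67 in S28D and -0.83 to 0.18 in S35D, with overlap.

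Among the largest falls outside these lists, PGAM2, a phosphoglycerate mutase best known from muscle, gave 4.73, 6.08, 6.28 and 6.38 in S28D and 2.36, 3.89 and 3.39 in S35D and fell by 2.66 (adjusted p = 0.0213). With PKM, pyruvate kinase (-0.61, adjusted p = 0.0181, with its other probe set at the floor), it made 2 of 25 genes of sugar metabolism that fell. DPEP1, a brush border dipeptidase, moved from 11.91, 11.45, 10.73 and 10.82 to 8.38, 10.02 and 10.05 (difference -1.74, adjusted p = 0.0403). ABLIM1, an actin-binding protein, fell by 1.51 (adjusted p = 0.023) with all 4 of its probe sets below 0, and CLASRP, a regulator of splicing, fell by 1.48 (adjusted p = 0.0353) with all 3 below 0.

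PLEK, pleckstrin of leukocytes and platelets, fell by 1.48 (adjusted p = 0.0357), RGS4, a brake on G protein signalling, by 1.45 (adjusted p = 0.044), and RPRD1A, which binds the tail of RNA polymerase II, by 1.54 (adjusted p = 0.0437). B4GALT4, a galactosyltransferase, fell by 1.66 (adjusted p = 0.0297), NSUN5, an RNA methyltransferase, by 1.53 (adjusted p = 0.0311), LOC100515383 by 1.92 (adjusted p = 0.0492) and C14H10orf35 by 1.72 (adjusted p = 0.0286), whose other probe set stayed at the floor. Elsewhere, CXCL16, a chemokine of epithelium and macrophages, rose by 1.89 (adjusted p = 0.0265, 1 of 33 cytokine genes), LYVE1, a hyaluronan receptor of lymphatic vessels, by 1.59 (adjusted p = 0.0115, 1 of 13 endothelial genes), and TIMP2, an inhibitor of matrix proteases, by 0.97 (adjusted p = 0.0194, 1 of 30 matrix genes).

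As controls for input, ACTB, cytoskeletal actin, differed by -0.03 (adjusted p = 1), and none of the 11 reference genes passed, at a median of -0.11. HBB, a haemoglobin chain of blood, differed by -0.51 (adjusted p = 0.0874), and ACTG2 by 0.39 (adjusted p = 0.758).

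In all, 104 named genes were past the threshold, 83 higher and 21 lower. Only 9 of the 104 passed whichever of the 7 arrays was left out: AREG, GMPR, TCP11, CTH, IFNGR1, DUSP6, CFLAR, CDKN1A and PSMA5. In the fit on the 7 arrays alone 6 of the 104 passed: ABCC2, ACSL3, CDKN1A, IFNGR1, TFF2 and TYK2. With labels exchanged none passed.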

How the data were processed

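RNA from scraped ileal mucosa of 20 piglets was hybridised to the Affymetrix Porcine Genome Array, 1 piglet an array. The authors deposited log2 values after GCRMA, per the labels (scanner software GCOS 1.2), without detection calls, and those log2 values were used as deposited. Of 24123 probe sets, 124 controls were left out and 23999 tested. One gene symbol was held by 10069 probe sets (9961 with a gene ID in the gene table), 198 had several and 13732 none. In all, 41.6% of values lay within 1 unit of the floor.

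The main test was limma 3.58.1 (R 4.3.3) with 1 mean for each of the 6 groups over all 20 arrays, the contrast S35D minus S28D, and Benjamini-Hochberg adjustment over all probe sets. The difference of changes came from the same fit. A call needed an adjusted p under 0.05 and 2-fold. Single genes and list members needed the adjusted p alone, on the brightest probe set of a gene. Lists are described by counts and medians, without a test. Named genes were the 15 largest rises and falls among genes past the adjusted p and 2-fold, without overlap and with a higher mean of at least 4, up to 6 members a list past the threshold, and fixed marker genes. Members and lists were chosen with earlier results of these data known. The test was tried on simulated data. P-values measure the spread between piglets of a group, with the litter of each array not given. The number of arrays limits the precision. Figures used matplotlib 3.10.9. Alternatives were the arrays in the fit, a dim filter (4 in at least 3 arrays), no fold minimum, 1 probe set per gene, variance trend, median centring, quantile normalization, replicate block, the methods' t-test, exchanged labels and each array left out. Same-numbered S28D and S35D arrays deviated together at r of 0.321, 0.032 and -0.014, so numbers were not taken as pairs.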

Additional observations from a re-analysis of the deposited data

Results flagged for a closer look

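Among the 4 S28D arrays, 1 array stood apart from the other 3 in 10 of the 172 genes and list scores tested, by a gap above Dixon's 95% critical value for the gap as a share of the group's whole range. Chance alone gives such a gap in about 1 in 20 groups.

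S28D replicate 1 was the array apart in TCP11 (3.32 against 3.83 to 3.85, gap 0.96 of the range), CDH1 (13.13 against 12.66 to 12.69, 0.931), NDUFC2 (12.53 against 12.28 to 12.33, 0.83) and the cell cycle score (0.22 against 0.77 to 0.78, 0.986). S28D replicate 4 was apart in HYAL1 (5.36 against 4.33 to 4.46, 0.877), CD3E (7.65 against 6.44 to 6.56, 0.905) and the score of fat absorption and export (0.07 against -0.90 to -0.75, 0.852). S28D replicate 2 was low in GMPR (3.98 against 5.92 to 6.30, 0.837). S28D replicate 3 was high in IER3 (7.69 against 6.90 to 6.98, 0.897) and in the score of the interferon genes themselves (2.13 against -0.68 to -0.45, 0.921), which rests on 1 measured gene that reached a value of 4. The same array was the highest S28D array in ISG15, RSAD2 and the antiviral score.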

How the results depend on the processing

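Calls from S28D to S35D numbered 640. Without the fold minimum there were 1570, with dim probe sets left out 1084, with 1 probe set per gene 337, by the methods' t-test unadjusted 1530 and after Benjamini-Hochberg adjustment 1, with only the 7 arrays in the fit 15, and with exchanged labels 0. The methods' t-test with exchanged labels, chosen after seeing the data, gave 36 unadjusted and 0 after adjustment. Leaving out 1 array gave 54 to 960. The settings with only suckling groups, variance trend, median centring and quantile normalization gave 607 to 937 calls. The replicate block gave 231 (186 higher, 45 lower). In the difference of changes, 0 became 2 with dim probe sets left out, 1 with median centring and 0 to 4 with 1 array left out. The cause was not tested beyond the number of arrays or probe sets that a setting removes.

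Of the 104 named genes past the threshold, 100 or more passed with suckling groups only, a dim filter, variance trend or median centring, 95 after quantile normalization and 46 with the replicate block. With dim probe sets left out, 13 list medians moved by more than the SD of the list score within groups, and 39 did not. None of them turned its sign. Only the exchange of labels turned the direction of named genes past the threshold, 49 of them, all then short of it. It turned the sign of 14 list medians, 9 of them in lists whose median and its move were larger than the SD of the list score within groups. Median centring turned 2 medians close to 0, of macrophages and dendritic cells (-0.01 to 0.03) and of cytokines (-0.003 to 0.041). Genes that rose would then stand at SFTPD -0.12, AREG -0.79, DMBT1 -1.31, GMPR -0.007, ABCC2 -0.071, TCP11 -0.45, LOC780435 -0.089, GSTA1 -1.84, RSAD2 -2.13, HYAL1 -0.23, DDX58 -1.60, ZBP1 -1.15, IRF7 -0.81, ISG15 -2.02, USP18 -1.29, XAF1 -1.18, OAS1 -0.86, IFIT2 -0.65, IFIT3 -1.05, IFIT1 -1.11, JUP -0.004, ACSL3 -0.036, PPARG -0.007, SC5D -0.39, AQP11 -0.11, FOS -0.35, DUSP6 -0.14, DNAJB9 -0.015, CASP8 -0.40, CDKN1A -0.063, CXCL16 -0.15, LYVE1 -0.37, SLC3A1 -0.28, SLC35C1 -0.076, NDUFA9 -0.015, NDUFAB1 -0.020, NDUFC2 -0.004, PSMA5 -0.13, PSMD14 -0.11, PSMA2 -0.088, PSMD11 -0.035 and PSMB4 -0.036. Genes that fell would stand at UGT2B31 0.19, DPEP1 0.64, C14H10orf35 0.86, ABLIM1 0.066, PKM 0.16, RPL5 0.055 and RPS28 0.062. The 9 list medians would be ISG15 pathway -1.66, antiviral effectors -0.55, cholesterol synthesis and uptake -0.33, lysosome -0.047, endocytosis of the suckling enterocyte -0.001, EGF family and immediate early genes -0.013, apoptosis -0.002, ribosomal proteins 0.029 and proteasome subunits -0.062.

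The comparison was limited by 4 and 3 arrays, a spread borrowed from the other groups, S35D replicate 1 as the array most calls need, values at the floor for many probe sets, and probe sets without a gene name, which hold 205 of the higher and 108 of the lower calls.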

Other observations

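Further lists had few or no calls between S28D and S35D. None of the 17 complement genes, 11 glucocorticoid-response genes, 5 clock genes, 11 genes of nerve, glia and pacemaker cells, 5 granulocyte and mast cell genes or 5 erythrocyte genes passed the test, at medians of 0.00, 0.13, 0.22, 0.00, 0.00 and 0.00. In these lists, complement ranged from -1.93 to 2.15 and the clock genes from -0.02 to 0.70. With dim probe sets left out, the median of nerve, glia and pacemaker genes was -1.20 and that of erythrocyte genes -0.51. The 20 genes of fatty acid oxidation and ketogenesis had a median of 0.41 with 16 above 0, and the 10 genes of endocytosis of the suckling enterocyte a median of 0.38 with 8 above 0 and none below. Smooth muscle genes had a median of 0.53, which was 0.00 without S35D replicate 3, the array with the high DES value.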
